A study of Drosophila melanogaster with 8 samples.

Results

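NimC4+ Sr-CI- hemocytes were described in single-cell RNA sequencing of whole *Drosophila melanogaster* embryos. A cell was a member when it held at least 1 UMI (unique molecular identifier, a count of captured mRNA molecules) of Pxn and at least 2 of NimC4. It also had to hold no UMI of Sr-CI, fewer than 5 of PPO1 and PPO2 together, and none of elav or repo. The members were thus chosen by measured values, and values of the genes of the rule are given below as a description. In all, 259 of 27932 kept cells were members (0.927%, exact 95% binomial interval 0.818 to 1.05), with a total of 1060024 UMIs. The embryos were at stage 17, aged 17 to 18.5 h at 25C, and carried the drivers alrm-gal4 and 25H07-gal4 with the reporters UAS myr::GFP and UAS-redstinger::NLS. All 8 samples were of this 1 condition, so no treatment or genotype was compared. They were 4 biological replicates, each sequenced on 2 lanes. Each replicate was made from a pool of dissociated embryos. The alrm driver is active in astrocytes, and RedstingerNLS, myr::GFP and Gal4 had 0 UMIs in the members, against 1873, 14 and 534 UMIs over all kept cells. The members held only 1060024 of the 230848097 UMIs of all kept cells, so the 0 tells little for myr::GFP and Gal4.

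Embryonic hemocytes, most of them macrophages called plasmatocytes, arise in the head mesoderm, spread through the embryo, engulf dying cells and deposit much of the basement membrane. NimC4, also called SIMU, is a receptor of the Nimrod family that binds apoptotic cells and acts with Draper in their uptake, in macrophages and in glia. Sr-CI is a class C scavenger receptor of macrophages that binds bacteria. Pxn encodes peroxidasin, an extracellular matrix enzyme that hemocytes secrete. PPO1 and PPO2 are the prophenoloxidases of crystal cells, while elav marks neurons and repo marks glia.

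3 groups of cells served for comparison. NimC4+ Sr-CI+ cells met the same rule with at least 1 UMI of Sr-CI and numbered 558. NimC4- Sr-CI+ cells, a gate added after the data were seen, held Pxn, at least 2 UMIs of Sr-CI and none of NimC4, PPO1 and PPO2 together under 5 and no elav or repo, and numbered 2643. The other kept cells were the remaining 27673 cells of the embryo, both hemocyte groups included. Levels are given as UMIs of a gene per 1000000 UMIs of the group (CPM), and ratios as log2 of the CPM ratio after 0.5 UMI was added to each sum. A gene was tested when it had at least 30 UMIs in the members, or would have had that many at the rate of the comparison cells. It was counted as higher or lower when the log2 ratio passed 1 in size and had the same sign in each of 4 library pairs, the 0.5 UMI being added to each pair's sum too. Since the members of pairs 2 to 4 have few UMIs, this added UMI can score a gene at 0 there as higher. Counts with the direction in each pair taken from CPM alone, an alternative added after the data were seen, are therefore given beside the first counts. This is a rule of size, not a statistical test, since cells of 1 pooled sample are not replicates. Intervals on CPM are exact Poisson and those on ratios exact conditional binomial, and they cover counting error only.

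Barcodes carried a number from 1 to 8 that no source ties to a sample. Numbers 1 and 5, 2 and 6, 3 and 7, and 4 and 8 shared 99.56% to 99.74% of the barcodes of the smaller one, against 0.23% to 0.42% for other combinations, and each such pair was summed into 1 library pair. All 259 members were found under both numbers of their pair, and 3 member barcodes also occurred in another library pair. The paper amplified each library before it was sequenced on 2 lanes, and the numbers of a pair shared nearly all barcodes. A molecule read on both lanes was therefore counted under both numbers, as 2 UMIs in the sum. How many molecules were counted so was not tested. For 44 members the 2 UMIs of NimC4 were 1 UMI under each number, so 1 molecule could have met that limit. Summed UMIs thus exceed the number of molecules, and counting intervals are too narrow. When the rule was applied to numbers 1 to 4 alone it found 227 cells, and to numbers 5 to 8 alone 294 cells, of which 79 were found both times.

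The members were very unevenly spread over the library pairs. Library pair 1 held 208 of them, and pairs 2, 3 and 4 held 9, 23 and 19. As a share of kept cells this was 2.85% in pair 1 and 0.137%, 0.321% and 0.277% in the other pairs. NimC4 itself had the same distribution: 41.6% of Pxn-positive cells in pair 1 held at least 2 UMIs of it (508 of 1221), against 6.56%, 7.13% and 7.86% in pairs 2, 3 and 4. Conversely, NimC4- Sr-CI+ cells numbered 145 in pair 1 and 662, 985 and 851 in the others. Within NimC4 hemocytes, 40.9% lacked Sr-CI in pair 1 (interval 36.6 to 45.4), and 12.3% (5.80 to 22.1), 19.0% (12.4 to 27.1) and 16.5% (10.3 to 24.6) did so in pairs 2, 3 and 4. Pair 1 was therefore the source of 80.3% of the members, pooled values below are mostly its values, and the main results are given by library pair. No source says which replicate pair 1 was, so a difference in its embryos and one in its handling cannot be told apart.

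**Figure D1:**
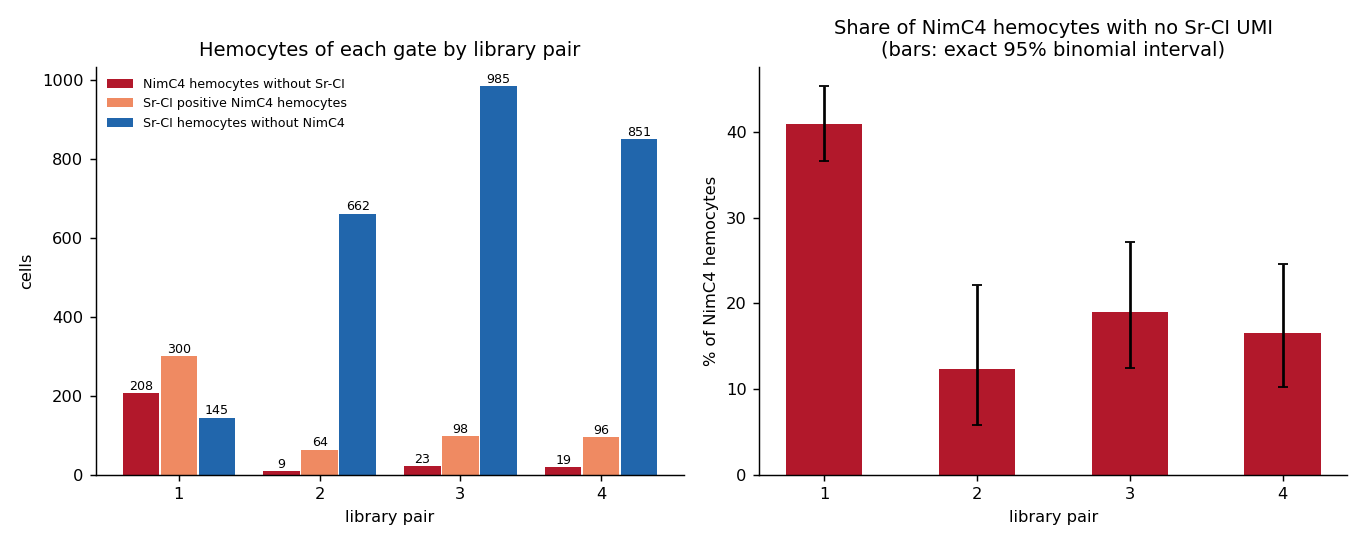
Left, number of cells (vertical axis) in the 3 hemocyte gates in library pairs 1 to 4; right, percent of NimC4 hemocytes with no Sr-CI UMI, with exact 95% binomial intervals. Pair 1 held 208 members and the other pairs 9 to 23, while NimC4- Sr-CI+ cells numbered 145 in pair 1 and 662 to 985 elsewhere.

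A cell can also lack a Sr-CI UMI because it was shallowly sequenced. The median depth was 3855 UMIs and 1039 genes in members, against 4617.5 UMIs and 1150.5 genes in NimC4+ Sr-CI+ cells. NimC4 hemocytes were ranked by their UMIs without Sr-CI and split into 4 groups of like number. The share without Sr-CI was 44.9% in the shallowest group (92 of 205 cells, median 2960 UMIs), 39.2%, 23.5% and, in the deepest group, 19.1% (39 of 204 cells, median 6690 UMIs). The intervals of the first and last groups were 37.9 to 52.0 and 14.0 to 25.2, but the pairs differ in depth and in share. With cells ranked within pair 1 alone the shares were 51.2%, 35.4%, 40.9% and 36.2%, with overlapping intervals for the first and last (42.2 to 60.1 and 27.9 to 45.2), and in pairs 2 to 4 together 35.9%, 9.09%, 7.79% and 13.0%. After each cell was thinned at random to 1000 UMIs, 71.8% of 815 cells had no Sr-CI, and the shares of the 4 depth groups lay between 69.0% and 76.5%. At that depth the share was 77.5% in pair 1 and 64.4%, 67.8% and 55.3% in pairs 2, 3 and 4, so the order of pair 1 above the others held, with the interval of pair 1 (73.6 to 81.1) overlapping those of pairs 2 and 3.

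**Figure D2:**
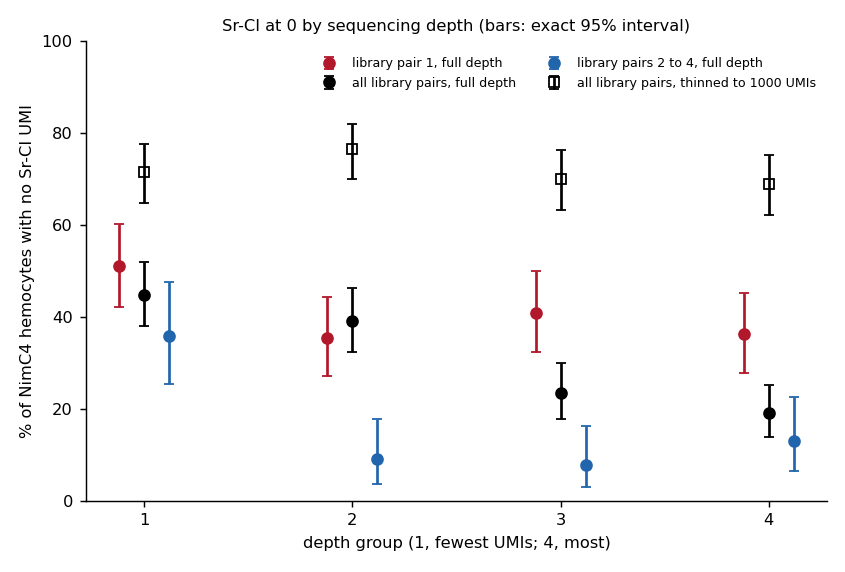
Percent of NimC4 hemocytes with no Sr-CI UMI (vertical axis) in 4 groups of rising depth (horizontal axis), with exact 95% binomial intervals, at full depth and after thinning to 1000 UMIs. At full depth the share over all library pairs was 44.9% in the shallowest and 19.1% in the deepest group, and after thinning it lay between 69.0% and 76.5% throughout.

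The thresholds cut through continuous counts. A member held 2 to 33 UMIs of NimC4 (median 3), 1 to 28 of Pxn (median 7) and at most 3 of PPO1 and PPO2. Just inside the NimC4 limit stood 78 members with 2 UMIs, at 14368 CPM of Ppn, and just outside it 157 cells with 1 UMI, at 12350.1 CPM. Just inside the Pxn limit were 16 members with 1 UMI, with 10304 CPM of Ppn, while the 70 cells that lacked Pxn but met the rest of the rule had 471 CPM. Outside the Sr-CI limit, 219 NimC4 hemocytes held 1 UMI of Sr-CI and 339 held more. A further 87 cells were left out for elav or repo and 2 for the prophenoloxidases.

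Hemocyte markers that the rule did not use were present in the members, apart from Hml. Ppn, which encodes the matrix protein papilin, was found in 258 of 259 members. It had 12947, 11276, 16898 and 13306 CPM in members of pairs 1 to 4, against 1152, 1536, 2040.0 and 1914 CPM in other kept cells. After thinning to 1000 UMIs a Ppn UMI was seen in 99.6% of members, 6.83% of neurons and 24.9% of muscle cells, whose median depths before thinning were 5012 and 3169 UMIs. Of 10 hemocyte markers outside the rule (Ppn, crq, srp, vkg, Col4a1, NimC1, ush, Hml, He and eater), 9 had UMIs in the members, and 257 members (99.2%) held at least 3 of them. Hml, which encodes the clotting protein hemolectin, was at 0 in every member. That count of 0 in 259 cells allows a share of up to 1.16% of cells with a UMI, and 3 UMIs in the group would be 2.83 CPM.

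Pooled over the library pairs, defining markers of other cell types were present at lower summed levels than in other kept cells. Summed over the lists, 9 glial markers had 396 CPM in members and 1054 CPM in other kept cells, 5 neuronal markers 59.4 and 1637 CPM, and 6 fat body markers 441 and 1836 CPM. The 9 members of pair 2 stood apart. Their 1511 CPM of the glial markers was above the pooled 1054 CPM of other kept cells and the 291 to 892 CPM in members of the other pairs. They also had 406 CPM of the neuronal markers, against 39.0 to 67.7 CPM, and 226 CPM of the 4 crystal cell markers, against 9.38 to 79.0 CPM. In members, lz of crystal cells, PPO3 of lamellocytes, Lsp1beta and Lsp2 of fat body and Klf15 of nephrocytes were at 0. The 7 muscle markers, at least 1 UMI of each of which was present, had 2012 CPM in members and 3525 CPM in other kept cells. By pair they had 2235, 541, 488 and 2517 CPM in members, and 102 members held at least 3 of them. Doublets were not removed, no member had over 3000 genes, and the part of free RNA or of doublets in these levels was not tested.

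Against all other kept cells, the members had more mRNA of matrix proteins, engulfment receptors and the machinery of macrophage movement, and less of genes of neurons, epidermis and trachea. The engulfment list, which holds NimC4 and Sr-CI of the rule, summed to 4743 CPM in members. It had 5619 CPM in NimC4+ Sr-CI+ cells, 6184 CPM in NimC4- Sr-CI+ cells and 1747 CPM in other kept cells. The basement membrane list had 78641, 85991, 105873 and 20191 CPM in the same order. High sums of these lists were thus not particular to the members. Of 4226 genes tested, 503 were higher (11.9%) and 1468 lower (34.7%), with a median log2 ratio of -0.61 over all tested genes. Without pair 1 the counts were 354 and 490, of which 298 and 460 were genes also counted with it. With no UMI added within pairs they were 453 and 1568. NimC4, which the rule fixed, led with 1160.3 CPM in members and 35.5 CPM in other kept cells. The next of the 10 leading genes was CG12522, with 2391, 1872, 1247 and 971 CPM in members of pairs 1 to 4 and 189, 50.8, 88.6 and 73.2 CPM in other kept cells. Its log2 ratio was 4.43 (95% interval 4.37 to 4.50), and the groups did not overlap. Gal, a beta-galactosidase, had 531 against 37.1 CPM, and FucTB, a fucosyltransferase, 105 against 8.25 CPM. The others were CG32091 (log2 ratio 3.88), CG4829 (3.63), Dtg (3.62), CG5854 (3.57), CG5853 (3.44) and CG15695 (3.44).

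Among 10 tested genes of the list of hemocyte identity and transcription factors, of 15 listed, 9 were higher and none lower, with a median log2 ratio of 2.26. They included the GATA factor srp, the zinc finger factor zfh1, the receptor tyrosine kinase Pvr and Pxn of the rule. For srp the members had 329, 226, 506 and 248 CPM in pairs 1 to 4, against 115, 84.9, 124 and 107 CPM in other kept cells. The list of engulfment, Nimrod and scavenger receptors had 29 genes, of which 17 were tested, 9 higher and 4 lower, NimC4 and Sr-CI themselves being among these. PGRP-LC, a receptor for bacterial peptidoglycan, was among the higher genes only through the added UMI. crq, which encodes the CD36-like receptor Croquemort for apoptotic cells, had 263, 293, 328 and 463 CPM in members and 38.9, 43.9, 53.3 and 50.02 CPM in other kept cells, a log2 ratio of 2.62 (2.45 to 2.78). The engulfment receptor drpr had 244 against 74.96 CPM, and its adaptor ced-6 516 against 127 CPM. NimC3, another Nimrod receptor, was at 54.7 against 8.49 CPM, and the secreted family members NimB1 and NimB4 were also higher. By contrast NimB2 was lower, with 52.8 against 276 CPM. Of 19 tested phagosome and lysosome genes 7 were higher and 3 lower, with CtsB1, a cathepsin B, at 1108 against 234 CPM and the sterol carrier Npc2a at 2493 against 437 CPM.

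Basement membrane genes gave the largest sums. Of 19 genes listed and tested, 13 were higher and 1 lower, with a median log2 ratio of 1.71. Col4a1, a chain of collagen IV, had 16283, 16282, 20471 and 23532 CPM in members of pairs 1 to 4 and 2951, 4847, 6618 and 6075 CPM in other kept cells. The other collagen IV chain, vkg, had 6782 against 2121 CPM, and the laminin chain LanA 5629 against 1097 CPM. Plod and PH4alphaEFB, hydroxylases that modify collagen, were at 3701 against 676 CPM and 608 against 93.8 CPM. The gene that was lower was Ndg, which encodes the laminin and collagen linker nidogen, at 19.8 against 108 CPM. Of 25 tested genes of cytoskeleton, adhesion and migration 10 were higher and 2 lower. sn, which encodes the actin bundler fascin, led them with 1059, 293, 816 and 451 CPM in members and 141, 107, 99.5 and 103 CPM in other kept cells. It was found in 85.3% of members, 61.5% of neurons and 14.4% of muscle cells, and after thinning in 57.98%, 21.3% and 5.68%.

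Genes of neurons, epidermis and trachea were lower. All 13 neuronal genes tested were lower, as were all 6 tested genes of epidermis and cuticle and all 6 of trachea. No gene of the neuronal or the epidermis and cuticle list reached the minimum of UMIs in members. These genes were tested only through their rate in other kept cells, and that choice fixed a negative pooled ratio. The counts of lower genes in both lists are therefore no evidence of a difference. The rule also barred elav from the members, while neurons stayed among the other kept cells. Median log2 ratios were -4.97 for neuronal genes and -4.83 for epidermis and cuticle, sizes that the minimum did not set. Of 12 tested muscle genes 5 were lower and none higher, a share of lower genes near the 34.7% over all genes tested. stg, the cell cycle phosphatase String, was the 1 gene of the cell cycle list counted as higher, with 789.6 against 175 CPM, while 4 of 18 listed genes were tested. Of the immune response list, PGRP-LF, spz and, through the added UMI, PGRP-LC were counted as higher and cact, dl and IM33 as lower among 10 tested. With no UMI added within pairs 2 were higher and 4 lower. Over all genes tested 11.9% were higher and 34.7% lower, so the share of lower immune genes was near that of all genes.

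**Figure D3:**
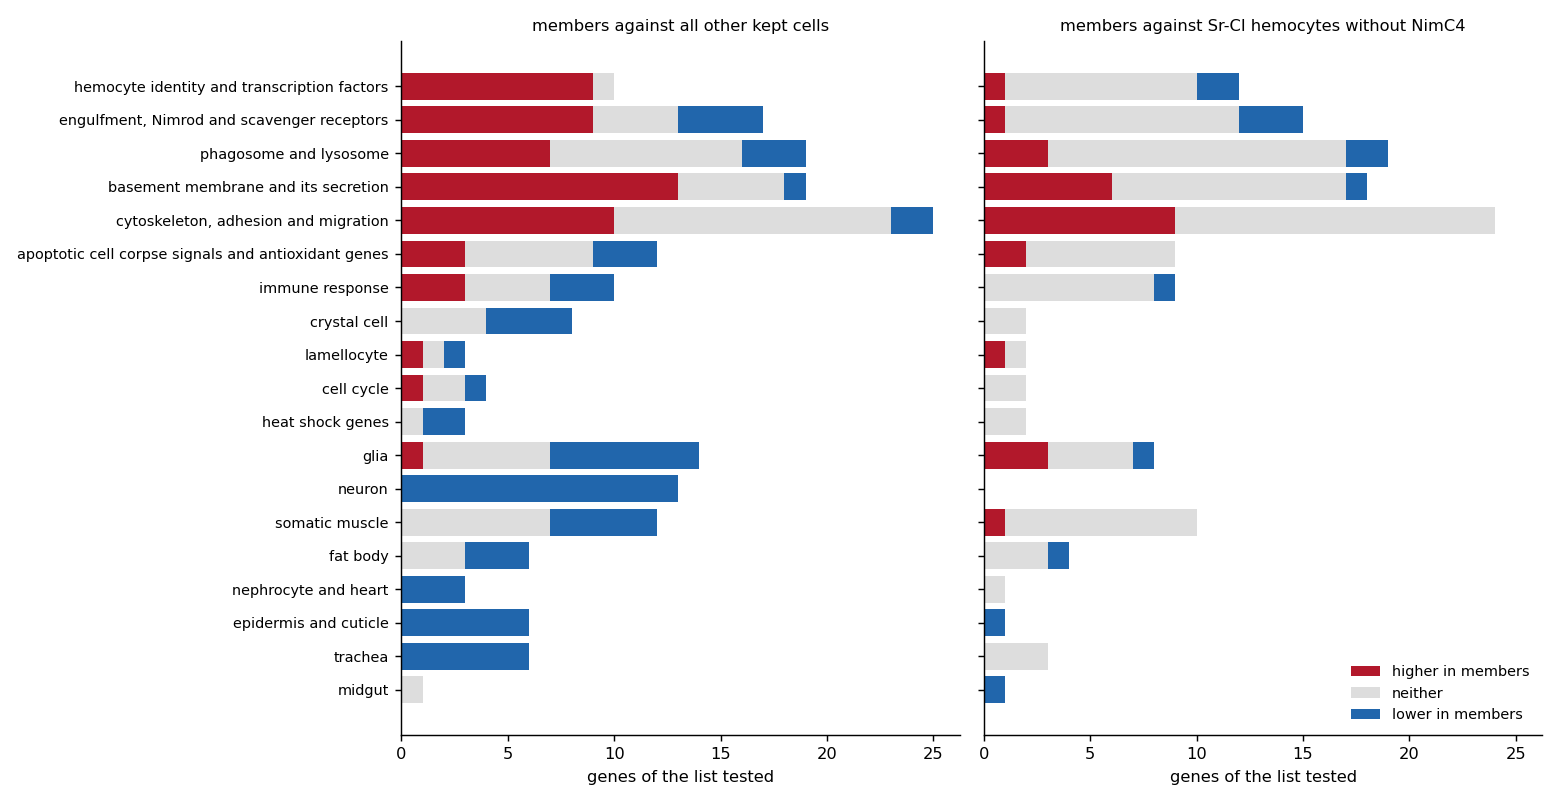
Number of tested genes per list (horizontal axis) that were higher, neither or lower in members, against all other kept cells (left) and against NimC4- Sr-CI+ cells (right). Against other kept cells 13 of 19 basement membrane genes were higher and 13 of 13 neuronal genes lower. The neuronal genes were tested only through their rate in other kept cells, which fixed a negative pooled ratio. Against NimC4- Sr-CI+ cells 9 of 24 cytoskeletal genes were higher and none lower.

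By the rule, NimC4+ Sr-CI+ cells differed from the members in Sr-CI alone, and the question was whether other genes differed with it. Few were counted. Of 2839 genes tested, 18 were higher (0.634%) and 33 lower (1.16%), Sr-CI itself included, and the median log2 ratio was 0.04. With no UMI added within pairs, 9 were higher and 36 lower. Small counts do not show that the groups were alike, since a gene had to keep its sign in pair 2, with 9 members and 44342 UMIs. With a minimum of 10 UMIs, 137 genes were higher and 56 lower. Pair 1 also supplied 80.3% of the members but 53.8% of the NimC4+ Sr-CI+ cells. No gene of the 19 lists was counted other than Sr-CI. Ppn, at 13304 against 13230.5 CPM, srp, at 336 against 316 CPM, and crq, at 288 against 321 CPM, had log2 ratios of 0.01, 0.09 and -0.16. NimC4 was at 1205, 744, 1182 and 925 CPM in members of pairs 1 to 4 and 1203, 656, 839.6 and 664 CPM in NimC4+ Sr-CI+ cells.

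The lower genes included secreted proteins and a lipoprotein receptor. cv-2, which encodes the BMP-binding protein Crossveinless 2, had 8.53, 45.1, 84.4 and 79.00 CPM in members of pairs 1 to 4 and 27.2, 308, 281 and 367 CPM in NimC4+ Sr-CI+ cells. Each pair had the lower value in members, but the level in members of pairs 2 to 4 was above that of NimC4+ Sr-CI+ cells in pair 1. The pooled log2 ratio of -2.94 (-3.61 to -2.39) therefore mixes pairs, and the ratios within pairs ran from -2.46 to -1.59. Idgf2, a chitinase-like growth factor, had 35.3, 22.6, 75.02 and 90.3 against 66.8, 286, 267 and 314 CPM in pairs 1 to 4, with within-pair ratios of -3.09 to -0.90. Its relative Idgf3 rested on 9 UMIs in 9 members, at 8.49 against 62.5 CPM. LpR2, a lipophorin receptor, had 184, 316, 263 and 474 against 246, 850.4, 766 and 1105 CPM. For loh, an ADAMTS-like matrix protein, the values were 47.5, 67.7, 84.4 and 372 against 67.6, 422, 362 and 450.0 CPM, and the members of pair 4 stood above those of the other pairs. Sirup, a mitochondrial assembly factor of respiratory complex II, had 12 UMIs in members, at 11.3 against 87.1 CPM, and Cyp6d5, a cytochrome P450, had 3 UMIs, at 2.83 against 32.9 CPM. The remaining genes among the 10 largest were CG42674 (log2 ratio -2.28), CG3829 (-2.17), su(r) (-2.05) and Prip (-1.93). Of the 33 lower genes, 14 were also counted without pair 1, 9 in barcode numbers 1 to 4 alone and 20 in numbers 5 to 8 alone. 7 genes were counted in all of these settings, namely LpR2, cv-2, CG34331, Sirup, loh, Idgf2 and Sr-CI.

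The higher genes rested on few UMIs, and 8 of the 10 largest were not higher in CPM in every pair. Of all 18, 10 had a UMI in members of every pair and 9 were higher in CPM in each. All but CG6337, whose 111 UMIs came from 1 cell, had 30 to 55 UMIs in the members. Ccp84Ac, a cuticle protein gene, had 46 UMIs from 4 cells. The chaperonin subunits CCT1 and CCT5 had 33 UMIs each, with 32.9, 0, 28.1 and 33.9 CPM for CCT1 in members of pairs 1 to 4 and 15.5, 2.78, 6.55 and 12.9 CPM in NimC4+ Sr-CI+ cells. In pair 2 CCT1 was thus lower in members and was counted only through the added UMI, and its pooled log2 ratio was 1.45 (0.70 to 2.19). CG6337 was at 0 in members of pairs 1, 3 and 4, and Ccp84Ac in those of pairs 2 to 4. The others of the 10 largest were NAAT1 (1.68), retn (1.60), CAH2 (1.36), phu (1.26), CG15347 (1.24) and CG5399 (1.24), of which only CG15347 and CG5399 were higher in CPM in every pair. Only 1 of the 18 genes was also counted without pair 1, 1 in barcode numbers 1 to 4 alone and 0 in numbers 5 to 8 alone.

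NimC4- Sr-CI+ cells were the reverse of the members for both receptors, and differed from them in many genes. Of 2946 genes tested, 352 were higher in members (11.9%) and 233 lower (7.91%), with a median log2 ratio of 0.21. With no UMI added within pairs, 280 were higher and 252 lower, so the count of higher genes in part reflects the added UMI. Orcokinin, for example, was counted as higher although all 9 members that held it were in pair 1. Since 80.3% of the members but 5.49% of the NimC4- Sr-CI+ cells came from pair 1, pooled ratios also carry the difference between the pairs. Without pair 1, 130 genes were higher and 97 lower, of which 111 and 87 were also counted with it. NimC4 and Sr-CI included, 88 of the higher and 74 of the lower genes were counted in the pooled cells, without pair 1 and under each set of barcode numbers, and 86 and 74 of these also with no UMI added.

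Genes of the actin cytoskeleton were higher in the members than in NimC4- Sr-CI+ cells, a trait that NimC4+ Sr-CI+ cells shared. Of 24 tested genes of cytoskeleton, adhesion and migration 9 were higher and none lower, with a median log2 ratio of 0.86. The list summed to 13926 CPM in members, 12294 CPM in NimC4+ Sr-CI+ cells and 6286 CPM in NimC4- Sr-CI+ cells. In pairs 1 to 4 the sum was 14329, 10081, 14329 and 11636 CPM in members. In NimC4+ Sr-CI+ cells it was 14442, 11257, 10903 and 9455 CPM. sn had 1059, 293, 816 and 451 CPM in members of pairs 1 to 4 and 361, 97.7, 106 and 106 CPM in NimC4- Sr-CI+ cells. Within each pair the members were higher, while the members of pair 2 lay below the NimC4- Sr-CI+ cells of pair 1. Act5C, a cytoplasmic actin, had 2923, 2864, 3648 and 2279.8 against 1357, 637, 635 and 599 CPM, without overlap between the groups. How many of all tested genes lacked overlap is not given, for this or other genes so named, so lack of overlap only describes their values. Its log2 ratio was 2.17 (2.11 to 2.23), and within pairs 1.11 to 2.52. chic, the actin binder profilin, had 1521, 1150.2, 1425 and 1264 against 838, 504, 562 and 573 CPM, again without overlap. The other cytoplasmic actin Act42A, close enough in coding sequence that the counting could have split reads between the actins, had 2674 against 481 CPM, and tsr (cofilin), sqh (myosin light chain), Arpc2, cpb and the integrin if were also counted as higher. betaTub60D, a tubulin, had 645, 113, 253 and 384 against 215, 41.3, 46.2 and 37.3 CPM. This gene is also known from muscle, and the muscle marker sum was 2235, 541, 488 and 2517 CPM in members of pairs 1 to 4 and 1620.5, 398, 590.1 and 472 CPM in NimC4- Sr-CI+ cells.

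In the list of basement membrane and its secretion 6 of 18 tested genes were higher and 1 lower. The summed level of the list was nonetheless lower in members of each pair. It was 76282, 69054, 91028 and 90369 CPM in members of pairs 1 to 4, against 91028.5, 106197, 105415 and 108064 CPM in NimC4- Sr-CI+ cells. Pdi, a protein disulfide isomerase, had 3396, 1985, 4098 and 2551 CPM in members of pairs 1 to 4 and 1978, 1133, 1297 and 1312 CPM in NimC4- Sr-CI+ cells. The endoplasmic reticulum chaperone Hsc70-3 had 391 against 113 CPM, and PH4alphaEFB, Gp93, Sec61alpha and the laminin chain wb were counted too. trol, the matrix proteoglycan perlecan, was lower at 1528 against 3169 CPM. The collagen IV chains were not counted in either direction: Col4a1 had 16283, 16282, 20471 and 23532 against 23118, 32316, 31789 and 32542 CPM, lower in members of each pair with a log2 ratio of -0.88. Of 19 tested phagosome and lysosome genes 3 were higher and 2 lower, shares near those over all genes tested. Cp1, a cathepsin L, had 668, 406, 422 and 508 against 276, 178, 209.7 and 198 CPM, and the values in members lay above those in NimC4- Sr-CI+ cells throughout. Among genes chosen after their values were seen, Hr4, a nuclear receptor of the ecdysone response, had 349.8, 90.2, 169 and 56.4 CPM in members, against 79.6 CPM in NimC4- Sr-CI+ cells of pair 1 and at most 20.5 CPM in those of pairs 2 to 4, and dap, an inhibitor of cyclin E and Cdk2, 312, 135, 309 and 169 against 105, 41.3, 52.9 and 37.8 CPM. Hr4 was also high over all other kept cells of pair 1, at 154 CPM, against at most 33.5 CPM in pairs 2 to 4.

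Of 15 tested engulfment and scavenger receptor genes NimC4 was higher and Sr-CI, NimC1 and NimB5 lower, NimC4 and Sr-CI by the rule, and the median log2 ratio was -0.20. Genes outside the lists were named here after their values were seen. Hml had 0 UMIs in members and 1953 UMIs in NimC4- Sr-CI+ cells (54.3, 205, 158 and 139 CPM in pairs 1 to 4). With UMIs taken as independent and 3 UMIs set as the floor over the members, the bound was 56.4-fold lower. That bound pools pairs of unlike make-up and, with the floor set in each set of cells, it was 14.9-fold in pair 1, 13.1-fold in pairs 2 to 4 together and 3.03-fold to 5.62-fold in these pairs singly. The 1953 UMIs came from 168 of 2643 cells (6.36%), with up to 68 in 1 cell, and 5 of these cells were among the 145 of pair 1. UMIs were thus not independent, and these bounds are not lower limits on a difference between cells. By cells, none of the 208 members of pair 1 held Hml, and 0 of 259 members allows a share of up to 1.16%. In NimC4+ Sr-CI+ cells 8 of 558 cells (1.43%) held a Hml UMI, and none of the 300 cells of pair 1 did. In neurons and muscle cells 0.483% and 0.255% of cells held a Hml UMI, and after thinning 0.101% and 0.142%, against 4.58% of NimC4- Sr-CI+ cells. NimC1, a Nimrod receptor for bacteria, had 88.98, 135, 244 and 192 CPM in members of pairs 1 to 4 and 184, 359.9, 367 and 401 CPM in NimC4- Sr-CI+ cells, with overlap between pairs. Without pair 1 its log2 ratio was -0.87, short of the limit. NimB5, a secreted member of the family, had 99.9, 113, 141 and 124 against 314, 489, 439 and 468 CPM and did not overlap. cv-2 had 8.53, 45.1, 84.4 and 79.00 against 256, 799, 719 and 727 CPM, and Idgf2 35.3, 22.6, 75.02 and 90.3 against 394, 1069.9, 936 and 1045 CPM, both without overlap. Idgf1 and Idgf3 were at 6.60 against 207 CPM and 8.49 against 312 CPM. For LpR2 the values were 184, 316, 263 and 474 against 784, 2019.8, 1860.3 and 1931 CPM. CG8157 had 21.9, 45.1, 56.3 and 67.7 against 258, 1003, 784 and 668 CPM. NimB5, cv-2, Idgf1, Idgf2, LpR2 and CG8157 had values in NimC4+ Sr-CI+ cells between those of the 2 other gates in every library pair.

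**Figure D4:**
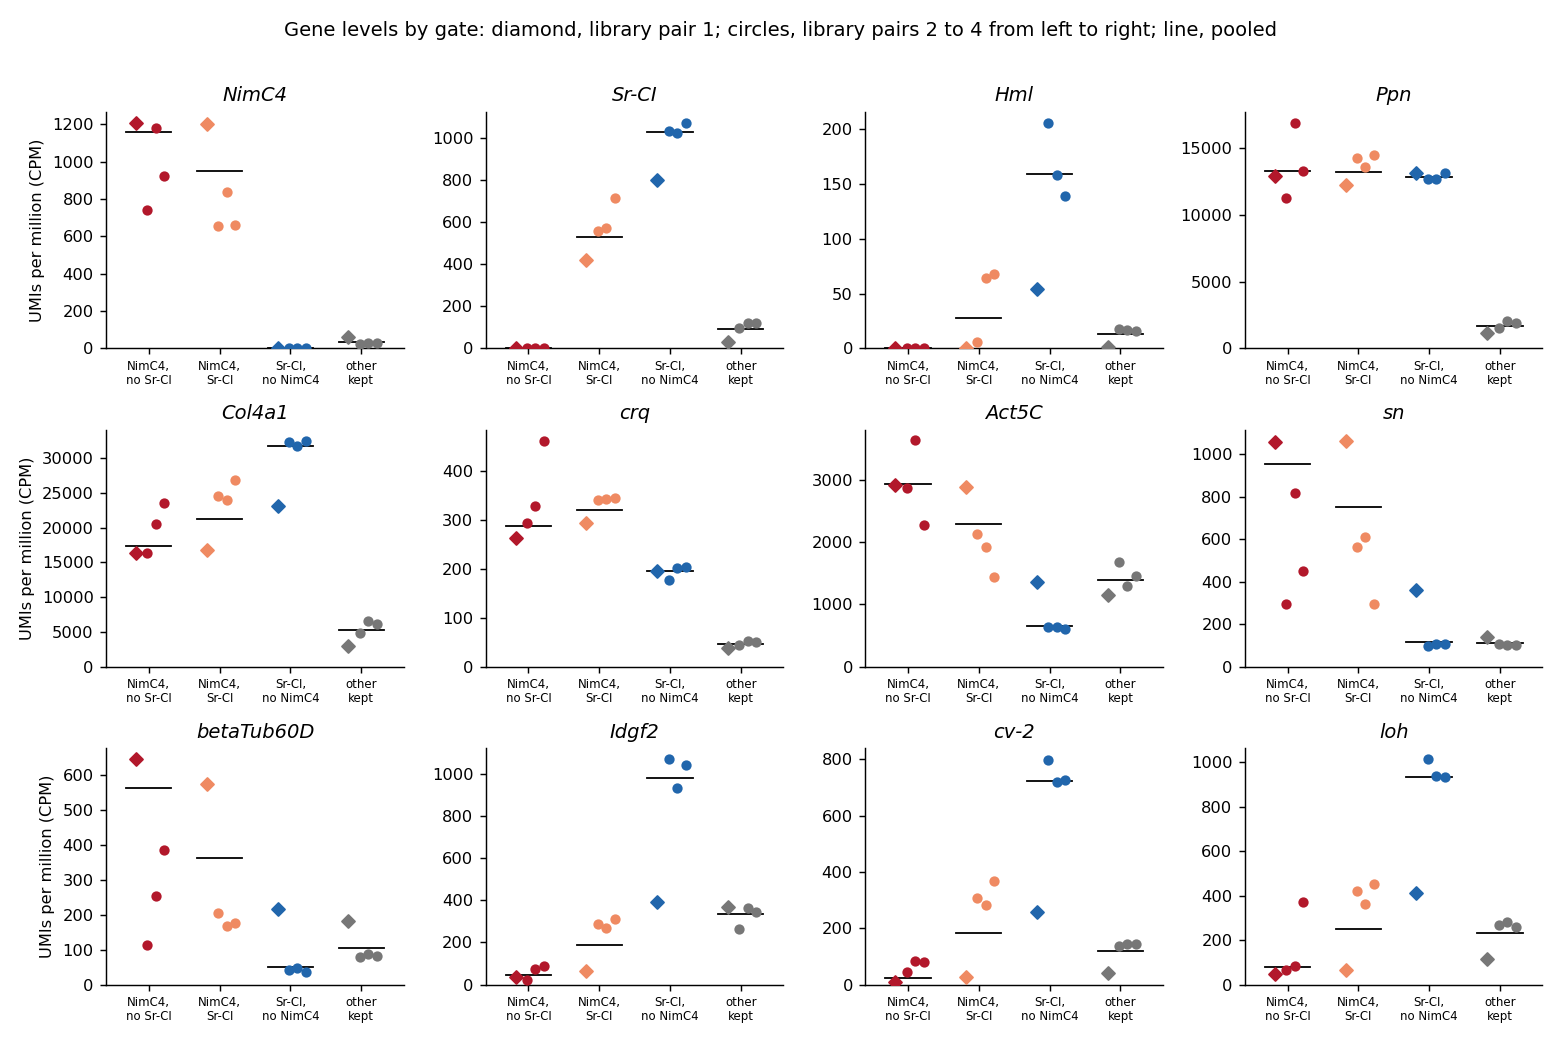
CPM (vertical axes, from 0) of 12 genes in members, NimC4+ Sr-CI+ cells, NimC4- Sr-CI+ cells and other kept cells, from left to right. Each point is 1 library pair (diamond, pair 1) and the line is the pooled value. Act5C lies higher and cv-2 and Idgf2 lower in members than in NimC4- Sr-CI+ cells in every pair, and Hml is at 0 in all members.

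**Figure D5:**
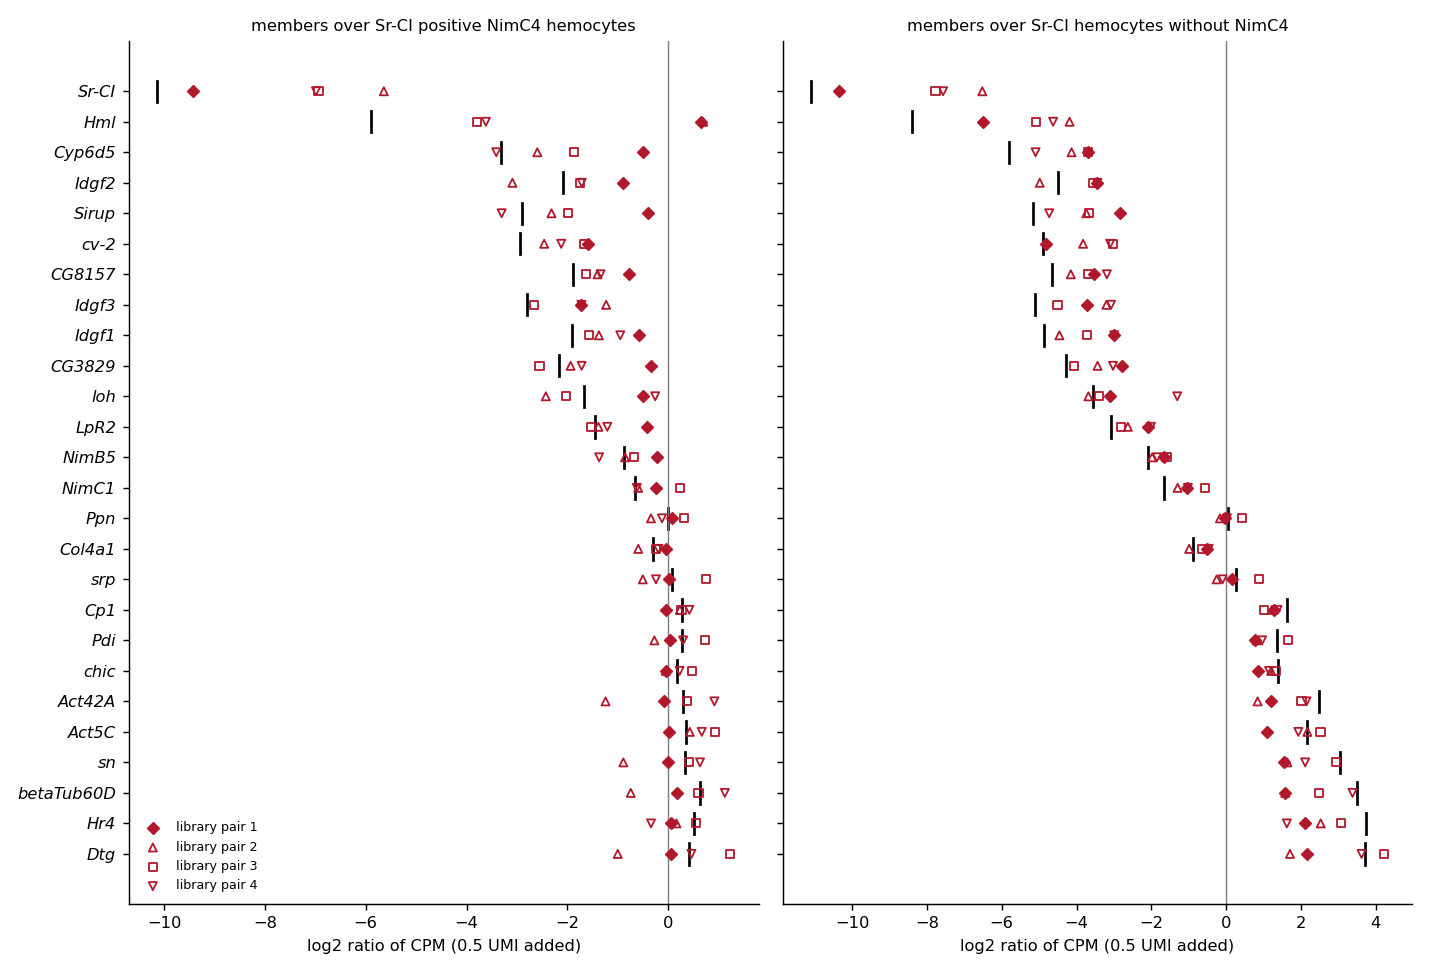
log2 ratio of CPM (horizontal axis) of 26 genes, members over NimC4+ Sr-CI+ cells (left) and over NimC4- Sr-CI+ cells (right), for each library pair (symbols) and pooled (black line). For several genes the pooled line lies outside the symbols, and for Hml and Sr-CI, at 0 in members, ratios rest on the 0.5 UMI added. cv-2 is an example of the first, with within-pair ratios of -2.46 to -1.59 on the left and a pooled ratio of -2.94.

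The members were not uniform. Clustering without the genes of the rule gave 5 clusters of 122, 69, 31, 21 and 16 cells, and their leading genes chose them, so levels are a description. Pair 1 supplied 85.2%, 92.8%, 12.9%, 100% and 93.8% of these, and without pair 1 the remaining cells formed 1 cluster. The cluster of 31 cells held 27 of the 51 members of pairs 2 to 4. In it sn was at 231 CPM and betaTub60D at 100.1 CPM, against 1179 and 549 CPM in the largest cluster, while cv-2 was at 108 against 8.62 CPM and loh at 331 against 23.7 CPM. Its leading genes included Obp44a, from 7 cells, and Eaat1, a glial glutamate transporter, from 4 cells, and its glial marker sum was 1116 CPM. The 16 cells of the smallest cluster had 14082 CPM of the 7 muscle markers, against 462 to 1091 CPM in the other clusters, and were led by muscle and glycolysis genes such as TpnC73F, Argk and Gapdh1. Their median depth was 5556 UMIs, and Ppn was at 9841 CPM. The 21 cells, all of pair 1 and with a median of 6175 UMIs, were led by Orcokinin, whose 336 UMIs came from 7 cells, and by CG12011, found in 19 of them. Over all members CG12011 had 1251 UMIs, of which 69.8% came from 10 cells. The cluster of 69 cells was led by cuticle genes that few cells carried, such as Cpr64Ab, from 5 cells. Whether these clusters reflect doublets or free RNA was not tested, and in the 4 clusters that came mostly from pair 1 a cell state and that library pair cannot be told apart.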

How the data were processed

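Pooled stage 17 embryos were dissociated and sequenced with droplet (10x Chromium) chemistry. The authors aligned the reads and aggregated the libraries with Cell Ranger 3.1.0 on genome build BDGP6, and deposited 1 matrix of whole-number UMI counts, with 17717 features, 73765 barcodes and 252748748 UMIs. The counts were deposited without normalization, and per-library depth is not given because barcode numbers are not tied to samples.

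Here both numbers of a barcode were summed, so a molecule read on both lanes was counted under each number. Cells with at least 200 genes and under 20% mitochondrial UMIs were kept, 27932 of 38531. Doublets were not removed. UMIs were summed per group and library pair. No statistical test was run, since no source maps the cells to samples, so the matrix counts as 1 sample, and the groups were chosen by the cells' own counts. Clustering (scanpy 1.11.5) took 1000 variable genes, 20 principal components and resolution 0.5, on counts scaled to 10000 UMIs per cell. Python 3.11.15, numpy 2.4.6, scipy 1.17.1 and pandas 2.3.3 were used, and the counting step was tested on simulated data.

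Members and lists were chosen with earlier results of these data known. Genes were named when they belonged to the rule or to 1 of 19 lists (275 genes, 2 not matched). The 10 leading genes over other kept cells with at least 100 UMIs, and the 10 leading genes in each direction against NimC4+ Sr-CI+ cells, were named too. The comparison with NimC4- Sr-CI+ cells, the mean of within-pair ratios and the direction within pairs with no UMI added were added after the data were seen. Alternatives changed the library pairs, barcode numbers, cell limits, gene minimum, ratio limit and clustering.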

Additional observations from a re-analysis of the deposited data

Results flagged for a closer look

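In 10 of 40 quantities looked at across the 4 library pairs, 1 pair lay far from the others relative to their spread. The limit used is passed by chance in about 1 in 20 groups of normal values of like precision. Here the pairs held 9 to 208 members, and several genes were picked from these same data. The 10 of 40 can therefore not be set against that rate. Library pair 1 stood apart in 3 measures of abundance. It held 208 members, against 9 to 23 in the other pairs, its members made up 2.85% of its kept cells, against 0.137% to 0.321%, and 41.6% of its Pxn-positive cells held at least 2 UMIs of NimC4, against 6.56% to 7.86%. Ccp84Ac, a cuticle gene, was at 56.1 CPM in members of pair 1 and at 0 CPM in those of the other pairs.

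The 9 members of pair 2 stood apart in 5 quantities. Their median share of mitochondrial UMIs was 10.0%, against 7.29% to 7.75%. CCT1 was at 0 CPM, against 28.1 to 33.9 CPM. CG15347 was at 158 CPM, against 9.38 to 29.3 CPM, and CG5399 at 338 CPM, against 13.4 to 45.1 CPM. CG6337 was at 2503 CPM, from a single cell, and at 0 CPM in members of the other pairs. In members of pair 4 loh was at 372 CPM, against 47.5 to 84.4 CPM.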

How the results depend on the processing

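Library pair 1 decided several counts. Leaving out each pair in turn gave 51 to 250 members. It gave 490 to 1566 genes lower than in other kept cells, 11 to 27 higher than in NimC4+ Sr-CI+ cells, and 130 to 379 higher and 97 to 258 lower than in NimC4- Sr-CI+ cells. It gave 1 to 5 clusters. Each lowest value was the one without pair 1. Barcode numbers 1 to 4 alone gave 754 genes lower than in other kept cells. With no minimum on UMIs the counts were 4901 higher than in other kept cells, 1269 higher and 62 lower than in NimC4+ Sr-CI+ cells, and 1742 higher than in NimC4- Sr-CI+ cells. A minimum of 10 UMIs gave 137 higher and 56 lower than in NimC4+ Sr-CI+ cells and 660 higher than in NimC4- Sr-CI+ cells. With a log2 limit of 2 there were 181 genes higher than in other kept cells, 2 higher and 9 lower than in NimC4+ Sr-CI+ cells, and 86 higher and 104 lower than in NimC4- Sr-CI+ cells. With the direction in each pair taken with no UMI added, 9 genes were higher than in NimC4+ Sr-CI+ cells. The mean of within-pair ratios gave 45 genes higher than in NimC4+ Sr-CI+ cells. Thinning to 1000 UMIs moved the share of NimC4 hemocytes without Sr-CI to 71.8%, against 31.7% at full depth. Of 121 alternatives to 9 counts and shares, 99 stayed within 1.5 times.

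Of 624 alternatives to 48 gene ratios, 454 stayed within the counting interval of the pooled ratio, 165 left it, and 5 changed sign. The log2 ratio of CG6337 over NimC4+ Sr-CI+ cells was -1.81 in numbers 1 to 4, -1.65 under 10% mitochondrial UMIs and -1.54 to 7.29 with 1 pair left out. Ccp84Ac ran from -0.15 to 4.30 with 1 pair left out, and Prip was at 0.11 in numbers 1 to 4. The cause of these shifts was not tested, apart from CG6337, whose UMIs came from 1 cell. No paired test was run. No source ties the barcode numbers to the labelled replicates, so the matrix counts as 1 sample, and within-pair ratios are given as a description. Depth limits ratios of genes with fewer than 30 UMIs in the 259 members.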
